A study of Sus scrofa with 8 samples.

Results

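The SOX genes encode transcription factors that share a DNA-binding HMG box. Of 10 members chosen by name (SOX2, SOX4, SOX5, SOX6, SOX8, SOX9, SOX10, SOX11, SOX17 and SOX18), 8 have a row of that name among the 21301 genes of the count matrices, and SOX2 and SOX4 are not analysed here. The members were followed in all 8 single-cell RNA libraries of a pig (Sus scrofa) series that sampled somites at embryonic day (E) 16, 18 and 21 and the myotome at E28. At each stage there was 1 library of Tibetan pigs (ZZ) and 1 of Duroc × Tibetan pigs (DZ), and the labels name no treatment. Each library was made from a pool of 5 embryos of the same sow, so that embryos cannot be separated and, within a stage, breed and sow cannot be told apart. Libraries served as the replicates, and a mean ± SD over libraries below therefore spans stages and breeds. Somites are blocks of mesoderm that give rise to cartilage and skeletal muscle, and the dissected tissue also held neural, neural crest, vessel, surface and blood cells.

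SOX factors bind the minor groove of DNA, bend it and act together with partner factors. SOX9, of the SOXE group, is required for cartilage formation, and SOX5 and SOX6, of the SOXD group, lack an activation domain of their own and reinforce SOX9 at cartilage enhancers. SOX8 and SOX10 are the other two SOXE proteins, and SOX10 maintains the neural crest and its glial and pigment derivatives. SOX11, of the SOXC group, accompanies neuronal differentiation. SOX17 and SOX18, of the SOXF group, act in endothelium, SOX18 also in the formation of lymphatic vessels.

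The 250 bases upstream of the annotated gene start are shown for SOX9, SOX10, SOX11 and SOX18, to give 1 member for each of the cartilage, crest, neuron and endothelial gates described further on. Sequence and annotation are those of RefSeq for Sscrofa11.1, the build of the files, and each run reads 5′ to 3′ on the strand of the gene. Capitals mark CCAAT on either strand, a common promoter element that was chosen after the sequences were seen.
SOX9, chr12:8647316-8647565, minus strand: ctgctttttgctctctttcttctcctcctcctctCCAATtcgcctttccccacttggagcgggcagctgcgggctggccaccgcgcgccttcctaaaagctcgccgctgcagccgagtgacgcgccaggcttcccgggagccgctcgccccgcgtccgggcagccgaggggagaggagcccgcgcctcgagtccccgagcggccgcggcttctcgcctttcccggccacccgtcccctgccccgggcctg
SOX10, chr5:9890189-9890438, plus strand: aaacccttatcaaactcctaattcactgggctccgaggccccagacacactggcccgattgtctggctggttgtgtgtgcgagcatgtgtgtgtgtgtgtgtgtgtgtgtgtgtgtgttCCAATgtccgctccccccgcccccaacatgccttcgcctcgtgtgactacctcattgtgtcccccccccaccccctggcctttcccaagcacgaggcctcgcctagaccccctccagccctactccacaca
SOX11, chr3:129800569-129800818, minus strand: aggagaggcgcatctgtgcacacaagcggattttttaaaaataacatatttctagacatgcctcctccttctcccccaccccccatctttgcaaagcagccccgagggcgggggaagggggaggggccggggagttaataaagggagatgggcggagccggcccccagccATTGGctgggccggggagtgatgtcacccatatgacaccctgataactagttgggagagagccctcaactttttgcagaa
SOX18, chr17:62871759-62872008, minus strand: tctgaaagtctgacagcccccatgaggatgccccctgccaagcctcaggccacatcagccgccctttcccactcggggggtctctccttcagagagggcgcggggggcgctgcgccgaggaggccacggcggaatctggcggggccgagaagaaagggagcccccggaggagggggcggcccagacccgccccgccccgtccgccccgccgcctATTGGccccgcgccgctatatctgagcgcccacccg
CCAAT was found on either strand in 6 of the 8 members' windows, all but those of SOX5 and SOX6, and in 31.9% of 19531 promoters of the same length. AACAAT, a core that SOX proteins bind, and GGAAGT, a core of ETS factors, were in none of the 8 windows, searched on both strands, and in 7.07% and 17.5% of all promoters. The window of SOX18 overlapped 1 other annotated gene, and those of the other 7 members none. The GC content of the windows ranged from 52.8% for SOX6 to 75.2% for SOX8, against a median of 57.6% over all promoters. SOX5 spans chr5:49159950-50166463 and SOX6 chr2:42447391-43068824, and their annotated transcripts use 19 and 35 different starts, of which a window covers only the first. SOX11, at chr3:129797438-129800568, has a single exon, and SOX9 lies at chr12:8642154-8647315, SOX10 at chr5:9890439-9901746, SOX8 at chr3:40825151-40830085, SOX17 at chr4:76854218-76857143 and SOX18 at chr17:62869868-62871758.

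After filtering, 75434 of 90688 barcodes were kept as cells, 5980 to 10988 per library, with 42298157 to 58853595 UMIs (unique molecular identifiers, each a captured RNA molecule) per library. In E16-ZZ, 39.2% of the barcodes were over the mitochondrial limit, against 1.05% to 9.15% in the other 7 libraries. Of 89679 distinct barcode sequences, 1001 occurred in more than 1 library. Cells were gated by marker genes, with no SOX gene among them: a cell belonged to a gate when at least 3 genes of its list had a UMI and no other list had as many. This placed 26.2% of the cells in a gate: 2935 in cartilage (collagen IX, aggrecan and matrilin genes), 4707 in muscle (MYOD1, MYOG, myosins), 570 in neural progenitor (PAX6, OLIG2, FABP7), 3330 in neuron (ELAVL3, STMN2), 2287 in crest (FOXD3, CDH19), 2937 in endothelial (PECAM1, CDH5, KDR), 2135 in epithelial and 868 in erythroid.

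Levels are given as CPM, the UMIs of a gene per 1000000 UMIs of the summed cells of a gate and library, for sums of at least 20 cells. Some gates changed in make-up with stage, which touches the results that follow. The cartilage gate held 16 to 46 cells in the E16 and E18 libraries and 367 to 1097 in the E21 and E28 libraries. Its own 11 markers summed to 566 to 804 CPM in the 3 early sums with enough cells, where 2 to 4 of them, MATN1 and UCMA among them, were at 0, and to 2357 to 8105 in the 4 late sums. Crest-gated cells carried the same cartilage list at 209 to 412 and endothelial-gated cells at 124 to 437. The crest list summed to 1118 to 1504 in early and 946 to 1372 in late cartilage sums, but its most abundant gene, ERBB3, was at 837 to 1377 CPM in muscle-gated cells too. The muscle gate was nearly empty at E16, with 2 cells in each library, and the neural progenitor gate was empty at E28.

 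The reads are tags from the 3′ end, not scaled by gene length, so levels were compared between cells and not between genes. Fold changes are on the log2 scale with their standard error, from edgeR's quasi-likelihood test with Benjamini-Hochberg adjustment over all genes tested and a threshold of 0.05. In fits between gates or muscle parts, with library as a term, the p-values measure spread left between sums after the library differences. Sums of the same library counted there as separate values. In fits of late against early, the p-values measure spread between pooled libraries of a period, with its stage differences included. Between breeds, they measure the spread left after stage.

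Where the transcripts of each gene were found differed strongly between members. Of all UMIs of SOX17, 89.2% lay in endothelial-gated cells, as did 76.7% of those of SOX18, while these cells held 6.79% of all UMIs. Crest-gated cells held 75.2% of the UMIs of SOX10 and 3.86% of all UMIs. SOX8 had 44.6% of its UMIs in muscle-gated cells (6.93% of all UMIs), and SOX11 had 24.7% in neurons (3.81%). Cartilage-gated cells, with 3.41% of all UMIs, held 20.3% of those of SOX5, 19.5% of SOX6 and 20.6% of SOX9. Cells outside every gate held 57.2% to 65.0% of the UMIs of SOX5, SOX6, SOX9 and SOX11, against 66.9% of all UMIs.

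**Figure D1:**
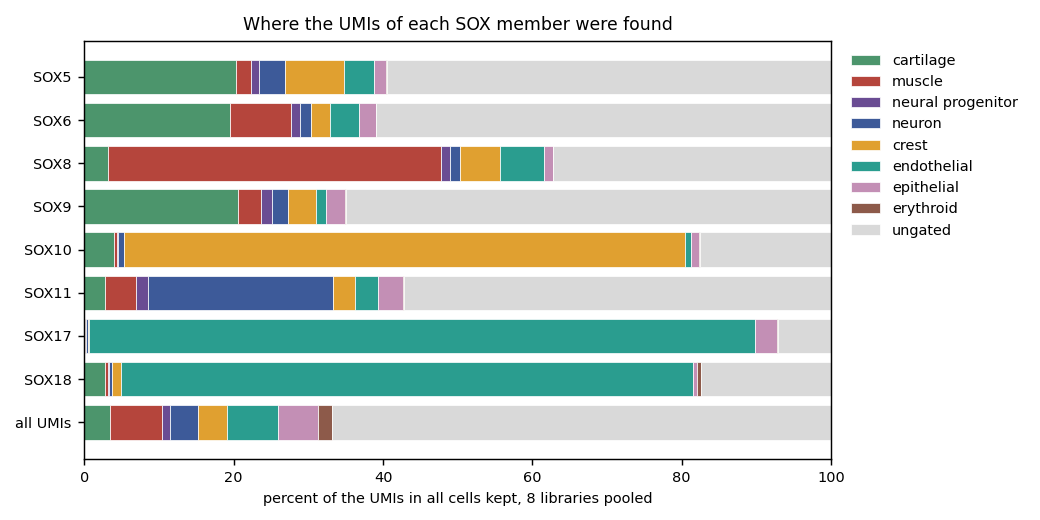
Stacked bars of the percent of each member's UMIs, and of all UMIs, that lay in each gate or in ungated cells, over the 8 libraries together. SOX17 and SOX18 are mostly endothelial (89.2% and 76.7%), SOX10 mostly crest (75.2%), and SOX5, SOX6, SOX9 and SOX11 mostly ungated.

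The cartilage trio, SOX9, SOX5 and SOX6, was highest on average in cartilage-gated cells. SOX9 stood at 74.5 CPM in E16-DZ, at 133.8 (ZZ) and 73.4 (DZ) at E18, at 302 and 224 at E21 and at 374 and 311 at E28. SOX6 stood at 49.6, 66.9, 42.0, 144, 181, 211 and 224 CPM in the same order of libraries. SOX5 stood at 14.9, 14.3, 25.2, 40.1, 55.4, 39.7 and 84.6 CPM. For all 3 genes, each of the 4 late libraries was above each of the 3 early ones, as held for 11.2% of all genes tested. E16-ZZ, with 16 cells in this gate, gave no sum.

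Against the mean of the other 5 gates, with the library as a term, 5 of 8 members passed the test in cartilage, where 27% of all genes tested did, 13.7% upwards. The epithelial and erythroid gates were not part of these fits or of the pooled counts below. SOX9 was higher by 2.74 ± 0.26 (edgeR adjusted p = 2.93e-10), SOX5 by 2.61 ± 0.20 (edgeR adjusted p = 2.64e-12) and SOX6 by 2.31 ± 0.20 (edgeR adjusted p = 4.2e-11). These 3 differences were 2.995, 2.86 and 2.50 when the weakly marked early cartilage sums were left out, a choice made after seeing the data. SOX10 was also higher, by 2.16 ± 0.39 (edgeR adjusted p = 6.16e-05), but by 0.91 without those sums (edgeR adjusted p = 0.0198), and by 1.09 (edgeR adjusted p = 0.0672) when gates required 4 markers. SOX11 was lower by 0.47 ± 0.13 (edgeR adjusted p = 0.00751), a call lost with gates at 2 markers (-0.28, 0.183). Of the genes that SOX9, SOX5 and SOX6 are known to act on, 5 of the 7 listed were tested and all 5 were higher in cartilage, led by the collagen genes COL2A1 (4.47), COL11A1 (4.29) and COL27A1 (3.20) and by WWP2 (4.07), with a list median of 4.07. FGFR3 of this list averaged 29.6 CPM in cartilage but 122 in neural progenitors. Because the gate was drawn with other cartilage genes, this count is no test of SOX action.

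**Figure D2:**
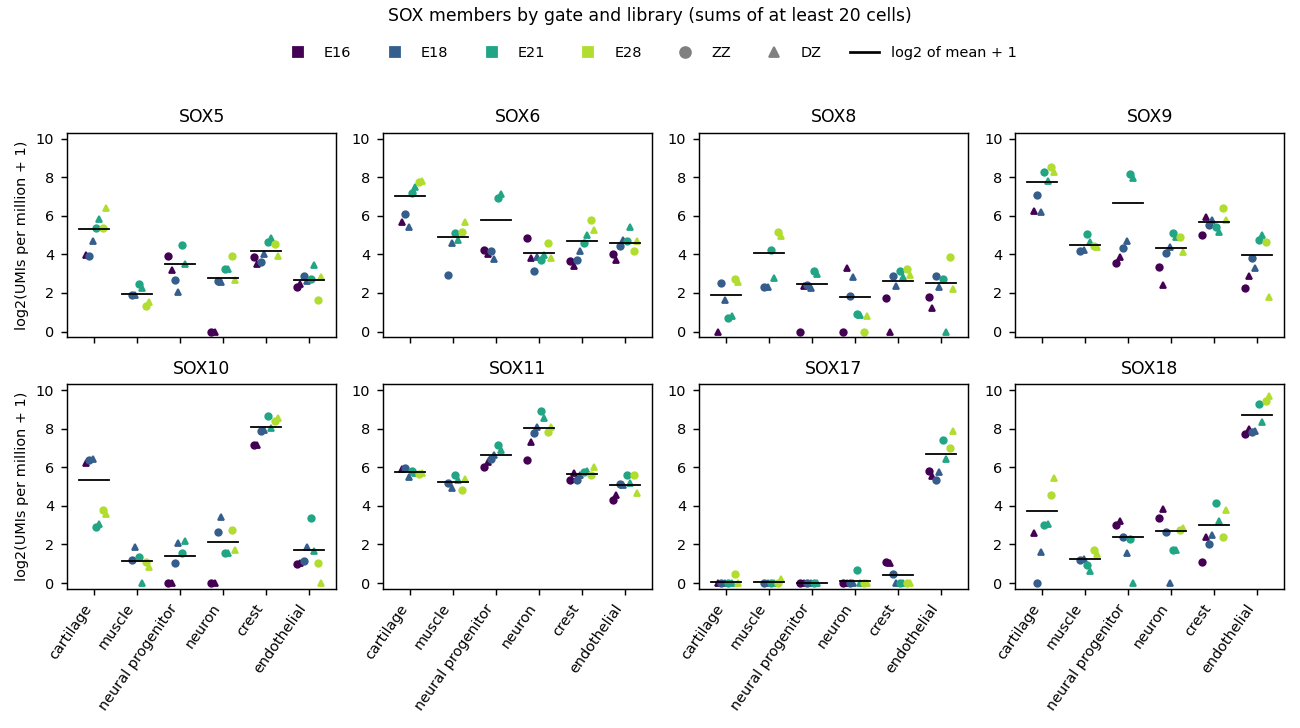
Level of each member, as log2(CPM + 1), in each gate, with 1 point per library: colour is the stage, circles are ZZ and triangles DZ, and bars mark the log2 of the mean level plus 1. SOX9, SOX6 and SOX5 reach their highest means in cartilage (213, 131 and 39.2 CPM). SOX10 has its highest mean in crest (267), and SOX17 and SOX18 have theirs in endothelial cells (101 and 425).

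Order and spread across gates differed between the 3 genes. SOX5 averaged 39.2 ± 24.9 CPM (SD, n = 7) in cartilage and 17.3 ± 6.29 (n = 8) in crest, the next gate, and the ranges of the libraries overlapped. SOX9 averaged 213 ± 121 CPM in cartilage and 101 ± 131 (n = 6) in neural progenitors, and SOX6 131 ± 77.8 and 53.2 ± 58.7, again with overlap. The progenitor means hold no E28 library, and in E21-DZ SOX9 was higher in neural progenitors (250 CPM) than in cartilage (224). In erythroid-gated cells, which should lack SOX5 and SOX9 of cartilage, SOX5 was at 0.363 ± 0.692 and SOX9 at 3.73 ± 2.86 CPM (n = 8). SOX6, which also has a role in red cells, was at 2.51 ± 2.90 there, so that these cells are no reference for it.

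Within the cartilage gate, 3 early and 4 late libraries could be compared, and 4 of the 6 members tested passed, where 6.28% of all genes did (3.53% higher and 2.75% lower). SOX6 was higher in the late libraries by 2.04 ± 0.27 (edgeR adjusted p = 0.00295), SOX9 by 1.79 ± 0.22 (edgeR adjusted p = 0.00237) and SOX5 by 1.77 ± 0.31 (edgeR adjusted p = 0.0104). SOX10 fell by 2.90 ± 0.31 on the log2 scale (edgeR adjusted p = 0.00129): it stood at 74.5, 81.3 and 83.9 CPM in the early libraries and at 6.58, 7.44, 12.9 and 11.11 in the late ones. SOX11 differed by 0.07 and SOX18 by 3.41 ± 1.19 (edgeR adjusted p = 0.116), neither past the threshold. The call for SOX5 was lost without E16-DZ (1.61, edgeR adjusted p = 0.0573), without E18-ZZ (1.81, 0.0692) and without E18-DZ (2.02, 0.0762), and that for SOX18 was gained without E21-DZ (4.06, 0.0207). Of the 5 genes of the cartilage target list tested here, 4 were higher in the late libraries: COL27A1 by 3.06, COL11A1 by 2.41, COL2A1 by 1.67 and WWP2 by 1.44. The gate's own markers rose between the periods, as given above, and notochord markers in this gate went from 27.3 to 66.9 CPM in early to 2.88 to 17.4 in late sums. Epithelial markers went from 27.3 to 119 CPM down to 2.30 to 4.19, erythroid markers from 4.20 to 4.96 down to 1.08 to 1.73, and macrophage markers from 0 to between 0.959 and 4.83; the part of these lists in the results was not tested.

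Cells were also scored for whether a UMI of a gene was found after each was thinned to 1500 UMIs, which removes differences in depth. SOX9 was found in 23.2 ± 13.6% of cartilage-gated cells, SOX6 in 17.2 ± 9.76% and SOX5 in 5.39 ± 4.30% (54.3%, 36.2% and 17.3% without thinning). In the 4 libraries with enough cells for the comparison, SOX6 was found in 28.3 ± 5.20% of cartilage cells with a SOX9 UMI and in 22.7 ± 3.28% of those without. For SOX5 the shares were 9.40 ± 3.73% with and 6.84 ± 2.93% without SOX9, and 9.87 ± 3.59% with and 7.02 ± 2.85% without SOX6. In each of the 3 pairs the share was higher beside the partner in 4 of 4 libraries, a description with no test.

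In muscle-gated cells SOX8 was the only member that was higher than the mean of the other 5 gates. SOX8 stood in muscle at 3.99 (ZZ) and 4.01 (DZ) CPM at E18, at 17.5 and 5.94 at E21 and at 34.8 and 30.2 at E28. This range overlapped those of SOX8 in crest, the next gate (0 to 8.36 CPM), and in endothelial cells (0 to 13.7). The gate's own 11 markers summed to 2699 to 3132 CPM at E18 and 3543 to 5044 later, and neuron markers to 13.4 to 17.3 and 99.8 to 393. Cartilage markers went from 167.1 to 183.5 CPM at E18 down to 27.2 to 34.1 and endothelial from 42.8 to 59.8 down to 17.4 to 22.6. Epithelial markers went from 35.9 to 40.1 down to 0.281 to 3.32, erythroid from 2.67 to 10.6 down to 0.302 to 1.62 and melanocyte from 0 to between 2.97 and 6.95. The 3 cardiac markers with a row summed to 582 to 809 CPM at E18 and 201 to 371 later. In E18-DZ (809) and E28-DZ (340) NKX2-5 and MYBPC3 were at 0, and TNNT2 gave the whole sum. At most 1.15% of the cells of a library held 2 cardiac markers. The part of these lists was not tested. The difference from the other gates was 2.02 ± 0.31 (edgeR adjusted p = 2.37e-06). A further 5 members were lower, so that 6 of 8 passed, where 37.5% of all genes did: SOX18 by 3.73 ± 0.37, SOX10 by 2.91 ± 0.60, SOX5 by 2.27 ± 0.29, SOX9 by 1.29 ± 0.34 and SOX11 by 0.97 ± 0.14. The call for SOX9 was lost with gates at 4 markers (-0.75, edgeR adjusted p = 0.0697) and without the E28 libraries (-1.12, 0.0542). SOX6 differed by -0.31 (edgeR adjusted p = 0.332). SOX8 was a gene of low level: a UMI was found in 2.68 ± 1.86% of muscle cells thinned to 1500 UMIs and in 0% of erythroid ones, at median depths of 5156 and 7522.5 UMIs.

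Muscle-gated cells were split into myocytes, with at least 2 of MYOG, MYMK, MYH3 and MYL1, and other muscle cells, in the same 6 libraries. SOX6, which represses slow-fibre genes in fetal muscle, stood in myocytes at 7.01, 29.4, 54.3, 48.9, 54.96 and 73.6 CPM from E18-ZZ to E28-DZ, and in the other muscle cells at 6.17, 11.06, 13.3, 6.91, 19.96 and 27.2. SOX8 stood at 4.67, 6.29, 25.3, 8.36, 47.7 and 40.8 CPM in myocytes and at 3.08, 0, 9.68, 3.95, 25.9 and 19.3 in the others. Both genes were higher in myocytes in all 6 libraries, as were 7.37% of all genes tested. The 3 cardiac markers summed to 482 to 1229 CPM in myocytes and to 5.44 to 70.1 in the other muscle cells, with NKX2-5 at 0 in 5 of 6 myocyte sums. In E18-DZ (1229) and E28-DZ (662) myocytes MYBPC3 was at 0 as well, and TNNT2 gave the whole sum. The part of these markers was not tested. SOX9 ran the other way, at 9.35, 14.7, 19.3, 21.5, 8.59 and 8.22 CPM in myocytes and at 27.8, 22.1, 44.8, 25.2, 28.3 and 31.6 in the others.

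All 3 differences passed the test, where 36.5% of all genes did: SOX6 by 1.91 ± 0.17 (edgeR adjusted p = 6.96e-07), SOX8 by 1.27 ± 0.15 (edgeR adjusted p = 1.1e-05) and SOX9 by -1.11 ± 0.22 (edgeR adjusted p = 0.000891). SOX5 (0.17) and SOX11 (0.12), the other two members tested, did not pass. Without the E28 libraries SOX9 differed by -0.58 (edgeR adjusted p = 0.129).

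**Figure D3:**
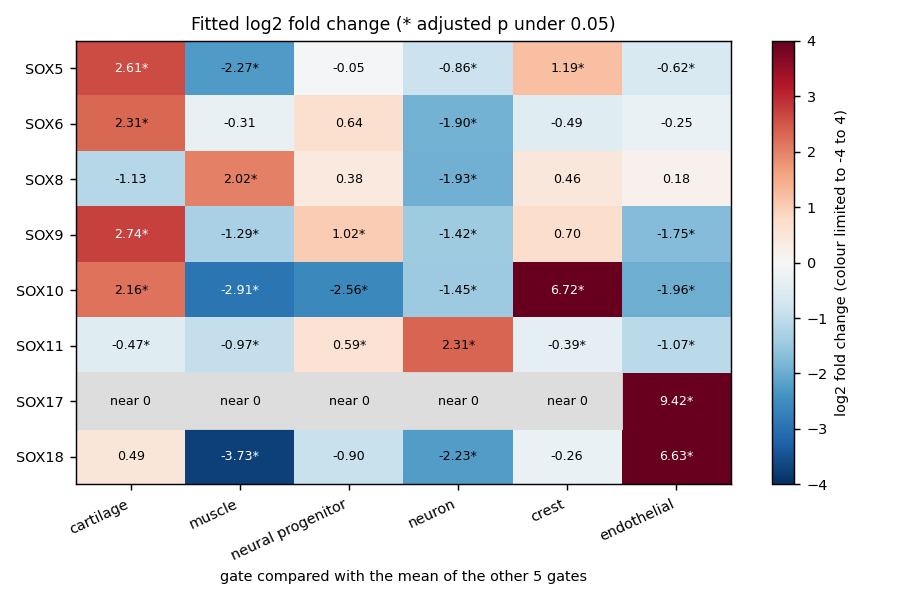
Heat map of the fitted log2 fold change of each member (rows) in each comparison of a gate with the mean of the other 5. Asterisks mark an edgeR adjusted p under 0.05, colour is limited to the range from -4 to 4, and SOX17 in the 5 gates other than endothelial is marked as near 0. SOX8 is the only member marked as higher in muscle and SOX11 the only one in neurons.

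SOX11 was the only member higher in neurons. It stood at 82.8 (ZZ) and 158 (DZ) CPM at E16, at 222 and 273 at E18, at 483 and 375 at E21 and at 227 and 275 at E28, with the top at E21 in both breeds. In neural progenitors it stood at 64.0, 77.7, 85.6, 98.01, 144 and 118 CPM from E16 to E21. Neurons exceeded the mean of the other gates by 2.31 ± 0.10 (edgeR adjusted p = 8.76e-21). SOX5, SOX6, SOX8, SOX9, SOX10 and SOX18 were lower, by 0.86 to 2.23, so that 7 of 8 members passed, where 54.1% of all genes did. The lower call was lost for SOX10 without E21-ZZ (-1.02, edgeR adjusted p = 0.179) or E21-DZ (-1.45, 0.0681), and for SOX5 without E21-DZ (-0.81, 0.0543), in all in 5 and 3 of 20 alternatives.

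A UMI of SOX11 was found in 31.8 ± 12.3% of thinned neurons and in 0.953% of erythroid cells. Of the 5 genes listed as targets of SOX4 and SOX11, 4 were higher in neurons, led by the tubulin gene TUBB3 (7.48), DCX (5.12) and PROX1 (1.46), where 27.4% of all genes were higher, and TEAD2, a transcription factor of the Hippo pathway, was lower by 1.28. Late against early neurons differed by 0.66 ± 0.31 for SOX11 (edgeR adjusted p = 0.146) and by 0.70 ± 0.40 for SOX9 (edgeR adjusted p = 0.244). The gate's own 10 markers summed to 1610 to 4294 CPM in early and 9928 to 12968 in late neurons, and neural progenitor markers to 204 to 258 and 19.9 to 112. Crest markers summed to 826 to 1124 CPM in early and 480 to 662 in late neurons, though fewer of the 9 were at 0 late (0 to 4) than early (2 to 7). The crest list summed to 534 to 1074 CPM in endothelial cells too. Endothelial markers went from 67.2 to 88.0 CPM down to 29.2 to 48.3 and epithelial from 51.7 to 260 down to 0 to 5.01. The part of these lists was not tested. With edgeR 0 of the 2 members tested passed, also at an unadjusted p under 0.05, and with DESeq2 0 passed and 1 had an unadjusted p under 0.05, where 22.1% of all genes were called by edgeR. Without the E28 libraries the difference for SOX11 was 0.98 (edgeR adjusted p = 0.0102).

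In neural progenitors SOX9, which is known to mark the shift of the neural tube towards glia, was low through E18 and high at E21. It stood at 10.7, 13.6, 19.02 and 24.7 CPM in the E16 and E18 libraries and at 289 (ZZ) and 250 (DZ) in those of E21. SOX6 moved alike, from 12.6 to 17.8 CPM in the 4 early libraries to 118 and 139 at E21. The progenitor markers also rose, from a summed 598 to 712 CPM in early to 1508 and 1570 at E21, FABP7 and PTPRZ1 most. Neuron markers in this gate went from 114 to 143.1 CPM in early sums to 295 and 317 at E21, and epithelial markers from 25.3 to 146 down to 0. Endothelial markers went from 44.9 to 81.8 CPM down to 10.4 and 23.6, muscle markers from 0 to 6.81 up to 11.8 and 17.4, and melanocyte markers from 4.23 to 20.4 up to 27.8 and 29.5; the part of these lists was not tested. With 2 late libraries no test within this gate was made.

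Against the other gates 3 of 8 members passed in neural progenitors, where 23.8% of all genes did. SOX9 was higher by 1.02 ± 0.33 (edgeR adjusted p = 0.0225) and SOX11 by 0.59 ± 0.14 (edgeR adjusted p = 0.00137), and SOX10 was lower by 2.56 ± 0.82 (edgeR adjusted p = 0.0209). The call for SOX9 rested on E21: without E21-ZZ the difference was 0.54 (edgeR adjusted p = 0.358) and without E21-DZ 0.62 (0.238), and it was lost in 6 of 20 alternatives in all. That for SOX10 was lost in 4 of 20, among them without E18-ZZ (-2.45, edgeR adjusted p = 0.0535) or E18-DZ (-2.73, 0.0887), and SOX6 was called higher without E18-DZ (0.94, 0.0114). Of the 6 genes tested from the list of SOX2 targets, 5 were higher in these cells (11.8% of all genes were), led by the Notch target HES5 (5.19), SFRP2 (2.88), MSI1 (1.82) and PROM1 (0.84). NES of this list averaged 623 CPM in neural progenitors but 1438 in muscle. Because the gate was drawn with other progenitor genes, this count is no test of SOX action.

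SOX10 was higher in crest-gated cells than in any other gate. It stood there at 142 (ZZ) and 139 (DZ) CPM at E16, at 235 and 247 at E18, at 402 and 258 at E21 and at 339 and 376 at E28, with every late library above every early one, as held for 18.3% of all genes tested. Pooled over libraries, 4161 UMIs gave 275 CPM in crest cells and 334 UMIs gave 3.86 CPM in the other 5 gates (exact Poisson 95% interval 3.46 to 4.30, counting error only). Of these 334 UMIs, 219 lay in cartilage-gated cells. The highest cartilage library stood at 83.9 CPM, against 139 for the lowest crest library. The fitted difference was 6.72 ± 0.26 (edgeR adjusted p = 1.66e-21), and 4.86 with gates at 2 markers.

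A UMI of SOX10 was found in 30.6 ± 9.79% of thinned crest cells, 0.380% of muscle cells and 0.0988% of erythroid cells, at median depths of 5940, 5156 and 7522.5 UMIs. With gates at 2 markers it was found in 6.56% of crest cells. In crest, 3 of 8 members passed, where 19.3% of all genes did (12.4% upwards and 6.95% downwards): besides SOX10, SOX5 was higher by 1.19 ± 0.20 (edgeR adjusted p = 2.8e-05, and 0.60 with adjusted p = 0.0616 when gates required 2 markers), and SOX11 was lower by 0.39 ± 0.12 (edgeR adjusted p = 0.0151). SOX5, which is known to modulate SOX10 at pigment cell genes, stood in crest between 10.4 and 27.5 CPM, with a median of 14.8. SOX9, at 0.70 ± 0.28 (edgeR adjusted p = 0.0711), missed the threshold and passed it without E21-ZZ (0.93, 0.0242) or E21-DZ (0.93, 0.0238), while SOX11 lost its call without E18-ZZ (-0.36, 0.0649) or E21-DZ (-0.37, 0.0606). SOX9 was found in 5.00 ± 2.29% of crest cells with a SOX10 UMI and 8.50 ± 2.50% of those without, higher beside SOX10 in 1 of 6 libraries.

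Of the crest genes listed as SOX10 targets, 5 of 6 were higher in crest than the mean of the other gates, led by the endothelin receptor gene EDNRB by 4.54, the integrin gene ITGA4 by 2.86, the neurotrophin receptor gene NGFR by 2.85 and the pigment cell regulator MITF by 1.65. NGFR averaged 90.6 CPM in crest but 142 in neurons, and ITGA4 86.5 in crest and 83.5 in muscle. Because the gate was drawn with other crest genes, this count is no test of SOX10 action. Within crest, 3 of 6 members tested were higher late, where 27.4% of all genes were called and 14.6% were higher: SOX6 by 1.31 ± 0.28 (edgeR adjusted p = 0.00426), SOX18 by 1.57 ± 0.45 (edgeR adjusted p = 0.0193) and SOX10 by 0.73 ± 0.18 (edgeR adjusted p = 0.00972). SOX6 stood in crest at 11.5, 9.36, 12.1 and 17.3 CPM in the early and at 23.0, 31.5, 53.3 and 37.9 in the late libraries. Every late library was above every early one, as held for 18.3% of all genes tested. With gates at 4 markers SOX6 differed by 0.28 (edgeR adjusted p = 0.711), and SOX10 lost its call without the E16 libraries (0.46, 0.0978), without the E28 libraries (0.68, 0.0571), with gates at 2 markers (0.83, 0.0579) and with a mitochondrial limit of 5% (0.31, 0.353). SOX9 differed by 0.00 (edgeR adjusted p = 0.994). All 5 target genes tested were higher late, led by EDNRB (2.85), MITF (1.91), ITGA4 (1.36) and NGFR (1.14). The gate's own 9 markers summed to 1729 to 1987 CPM in early and 2232 to 2846 in late crest sums. Melanocyte markers, of which MITF is also 1, summed to 391 CPM in E28-ZZ and 4.59 to 38.9 in the other 7 libraries, and neural progenitor markers went from 26.4 to 56.0 CPM in early to 288 to 331 in late crest sums. Muscle markers went from 2.29 to 13.3 CPM in early to 24.5 to 314 in late crest sums, and neuron markers from 396 to 573 down to 181 to 274. Endothelial markers went from 106 to 161 CPM down to 55.6 to 97.2, and erythroid markers from 2.08 to 15.7 down to 0 to 1.46. The part of these lists was not tested. SOX18 stood in crest at 1.15 to 4.61 CPM in the early and 4.18 to 16.8 in the late libraries, near its level in erythroid cells (6.52 ± 6.55), and lost its call without E16-ZZ (1.41, edgeR adjusted p = 0.0545), E18-ZZ (1.504, 0.0804), E28-DZ (1.54, 0.0503) or both E16 libraries (1.44, 0.0895), and SOX5 (0.71, 0.0618) gained one without E28-DZ (0.89, 0.0225).

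SOX17 and SOX18 were higher in endothelial-gated cells than in any other gate. SOX18 stood at 214 (ZZ) and 254 (DZ) CPM at E16, at 223 and 237 at E18, at 615 and 322 at E21 and at 702 and 836 at E28. SOX17 stood at 56.1, 45.1, 40.3, 52.7, 170, 85.7, 125 and 237 CPM in the same order. For both genes every late library was above every early one, as held for 17.4% of all genes tested, E21-DZ being the lowest of the late ones.

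Pooled over libraries, SOX17 gave 1684 UMIs and 63.2 CPM in endothelial cells, and 12 UMIs and 0.160 CPM in the other 5 gates (exact Poisson 95% interval 0.0827 to 0.280). The epithelial gate, not among these 5, held 55 UMIs of SOX17 and 2.59 CPM, and the erythroid gate 3 UMIs and 0.426 CPM. No UMI of SOX17 was found in neural progenitors, where 3 UMIs would be 0.691 CPM. SOX18 gave 7670 UMIs and 288 CPM against 483 UMIs and 6.45 CPM (5.88 to 7.05). Fitted, SOX18 was higher by 6.63 ± 0.17 (edgeR adjusted p = 1.35e-28), and SOX17, whose fitted size depends on the prior count, was called higher as well. SOX5, SOX9, SOX10 and SOX11 were lower, so that 6 of 8 members passed, where 46.8% of all genes did and 25.4% were higher. That of SOX5 (-0.62 ± 0.24, edgeR adjusted p = 0.0333) was lost in 10 of 20 alternatives, among them without E16-ZZ (-0.55, 0.0813), E21-ZZ (-0.49, 0.131), E21-DZ (-0.63, 0.0668) or E28-ZZ (-0.52, 0.0839). With a mitochondrial limit of 5%, SOX9 (-0.75, edgeR adjusted p = 0.167) and SOX10 (-1.25, 0.185) also missed the threshold.

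A UMI of SOX18 was found in 31.2 ± 12.0% of thinned endothelial cells, against 1.51% of erythroid and 0.0866% of muscle cells. SOX17 was found in 9.57 ± 3.88% of endothelial cells and 0% of erythroid cells. With gates at 2 markers the shares in endothelial cells were 16.2% for SOX18 and 4.57% for SOX17. Among endothelial cells with a SOX18 UMI, 18.5 ± 7.05% also held SOX17, against 5.53 ± 2.50% of those without, a share that was higher in 8 of 8 libraries. The list of endothelial genes that SOX17 and SOX18 are known to act on was higher in this gate in 6 of the 6 tested, with the guidance receptor gene ROBO4 by 8.48, the Notch ligand gene DLL4 by 7.07, UNC5B by 4.37 and NOTCH4 by 3.55. CXCR4 of this list averaged 64.7 CPM in endothelial cells but 245 in neural progenitors. Because the gate was drawn with other endothelial genes, this count is no test of SOX action.

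Within the endothelial gate SOX17 was higher late by 1.53 ± 0.28 (edgeR adjusted p = 0.00457) and SOX18 by 1.28 ± 0.25 (edgeR adjusted p = 0.00595), 2 of the 7 members tested, where 25.3% of all genes were called. SOX9 differed by 1.30 ± 0.53 (edgeR adjusted p = 0.0978), and passed without E28-DZ (1.67, 0.0213). Of the 6 target genes tested, 4 were higher late (13.5% of all genes were): ROBO4 by 2.61, CXCR4 by 1.89, NOTCH4 by 1.08 and UNC5B by 0.80. The gate's own 12 markers summed to 3319 to 3930 CPM in early and 4687 to 8113 in late libraries. Macrophage markers summed to 0.474 to 7.15 CPM in the E16 and E18 libraries and E21-ZZ, and to 207 in E21-DZ and 347 (ZZ) and 454 (DZ) at E28. Cardiac markers went from 12.1 to 55.4 CPM in early to 4.20 to 10.9 in late endothelial sums, and cartilage markers from 306 to 437 down to 124 to 273. Neuron markers went from 61.1 to 95.2 CPM up to 130 to 271, and muscle markers from 2.76 to 11.14 up to 12.3 to 46.9; the part of these lists was not tested. SOX18 missed the threshold without the E28 libraries (0.82, edgeR adjusted p = 0.091) and with a mitochondrial limit of 5% (2.02, 0.093).

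**Figure D4:**
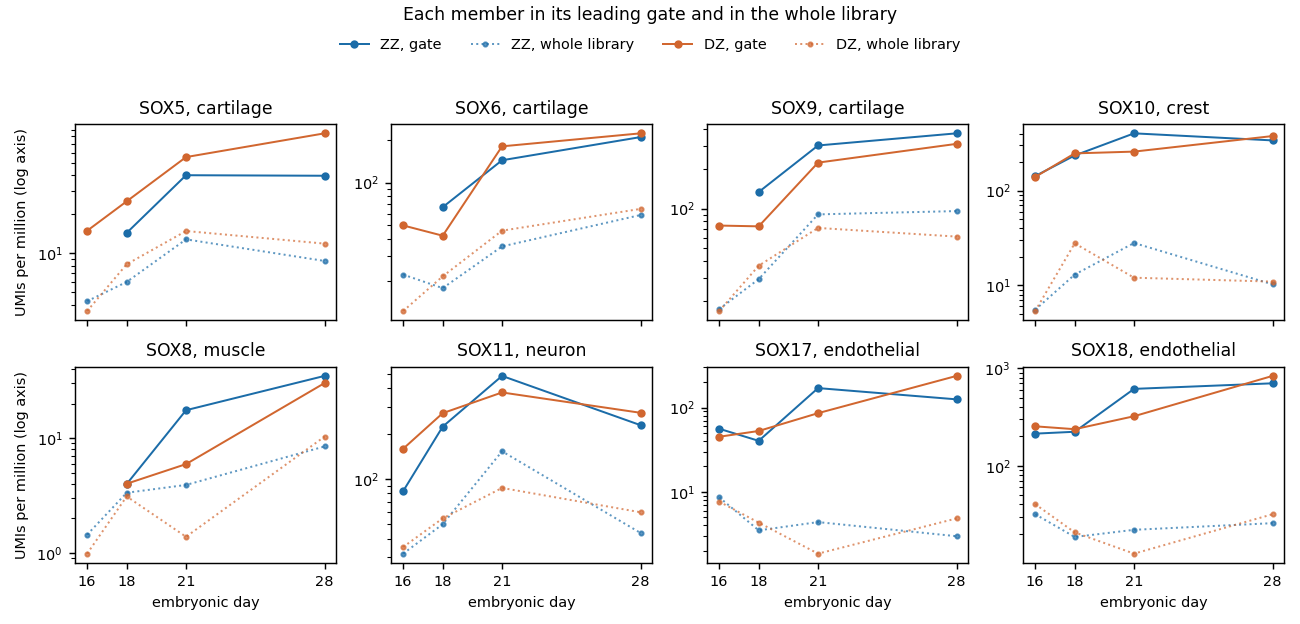
Level in CPM (log axis) against embryonic day for 8 members, in the gate where each is highest (solid lines) and in whole libraries (dotted lines), with ZZ and DZ drawn apart. SOX17 and SOX18 stand higher within endothelial cells at E21 and E28 than at E18 in both breeds, SOX17 of ZZ with its top at E21. Their whole-library levels stay between 1.85 and 8.64 and between 12.5 and 40.3.

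Whether the change with stage differed between gates was tested in a comparison added after seeing the data: the late minus early change in a gate minus the mean change of the other 3 gates with enough libraries, which for SOX10 includes its fall in cartilage. In cartilage, where 6.63% of all genes passed, the change differed by 1.43 ± 0.32 for SOX6 (edgeR adjusted p = 0.00542), by 1.29 ± 0.39 for SOX9 (edgeR adjusted p = 0.0444) and by -2.84 ± 0.43 for SOX10 (edgeR adjusted p = 5.54e-05). In crest, where 4.97% did, it differed by 1.71 ± 0.36 for SOX10 (edgeR adjusted p = 0.00369) and by -1.51 ± 0.34 for SOX9 (edgeR adjusted p = 0.00798). In endothelial cells, where 6.89% did, it differed by 2.26 ± 0.65 for SOX10 (edgeR adjusted p = 0.0325). In neurons, where 15.7% of all genes passed, no member did. SOX10 was at up to 2.66 CPM in the early and 0 to 9.50 in the late endothelial sums, from 44 UMIs in all, against 4161 in crest. It passed the filter on low counts in this joint fit but not within endothelial cells. Its own change there was not tested, and this value does not show one. The call held in 4 of 13 alternatives for SOX9 in cartilage, in 6 of 13 for SOX10 in endothelial cells and in 10 of 13 for SOX9 in crest, where the highest edgeR adjusted p was 0.171, without the E16 libraries. Without E18-DZ, cartilage SOX6 (edgeR adjusted p = 0.223) and crest SOX10 (0.289) also missed the threshold. For SOX18 the change in endothelial cells differed by -0.17 (edgeR adjusted p = 0.941), and SOX17 was too low in the other gates for this comparison.

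In whole libraries, whose levels alone do not tell fewer cells of a type from less RNA per cell, 3 of 8 members were higher late than early, where 34.6% of all genes were called and 17.3% were higher. SOX9 stood at 17.3, 16.7, 29.2 and 36.9 CPM in the early and at 90.5, 71.4, 95.9 and 61.4 in the late libraries. SOX6 stood at 22.2, 12.2, 17.8 and 21.6 CPM early and 35.2, 45.6, 58.9 and 65.1 late, and SOX5 at 4.24, 3.56, 5.98 and 8.20 early and 12.8, 14.8, 8.70 and 11.8 late. For these 3 genes every late library was above every early one, as held for 23.6% of all genes tested. The differences were 1.51 ± 0.26 for SOX9 (edgeR adjusted p = 0.00542), 1.30 ± 0.26 for SOX6 (edgeR adjusted p = 0.00838) and 0.97 ± 0.26 for SOX5 (edgeR adjusted p = 0.0245). The call for SOX5 was lost without E16-ZZ (0.93, edgeR adjusted p = 0.0654), E21-ZZ (0.90, 0.0603), E21-DZ (0.85, 0.0629) or both E16 libraries (0.69, 0.115), and that for SOX6 without both E28 libraries (0.96, 0.0635).

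The other 5 members did not pass. Endothelial-gated cells made up 10.03% (ZZ) and 11.14% (DZ) of the cells at E16, 4.26% to 4.39% in the E18 libraries and 0.764% to 1.36% in the late ones, while SOX17 and SOX18 per UMI of these cells rose, as given above. SOX18 stood at 31.8, 40.3, 18.6, 20.7, 22.0, 12.5, 25.7 and 31.8 CPM from E16-ZZ to E28-DZ and SOX17 at 8.64 and 7.68 at E16 and at 1.85 to 4.85 in the other 6 libraries, with differences of -0.49 ± 0.36 (edgeR adjusted p = 0.317) and -1.01 ± 0.42 (edgeR adjusted p = 0.0986). That of SOX18 turned to 0.13 without the E16 libraries and to 0.59 with a mitochondrial limit of 5%. SOX11 stood highest in E21-ZZ, at 152 CPM, with 31.8 to 87.0 in the other 7 libraries, and differed by 0.82 ± 0.36 (edgeR adjusted p = 0.110), or 1.03 (0.0413) without E28-ZZ. Neurons made up 18.0% of the cells in E21-ZZ, 9.02% in E21-DZ and 0.350% to 2.22% in the other 6 libraries. SOX10 stood at 27.8 CPM in E18-DZ and 28.0 in E21-ZZ and at 5.36 to 13.0 in the others, a difference of 0.12 ± 0.57 (edgeR adjusted p = 0.889), which was negative without E16-ZZ (-0.22), E16-DZ (-0.09), E21-ZZ (-0.35) or both E16 libraries (-0.54) and with a mitochondrial limit of 5% (-0.75). Crest-gated cells made up 6.34% of the cells in E18-DZ, 4.91% in E21-ZZ and 1.23% to 3.13% in the others. SOX8, highest in the E28 libraries (8.46 and 10.31 CPM), differed by 1.28 ± 0.63 (edgeR adjusted p = 0.145), and by -0.04 without these libraries. The median difference of the members was 0.89 and that of all genes 0.03.

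**Figure D5:**
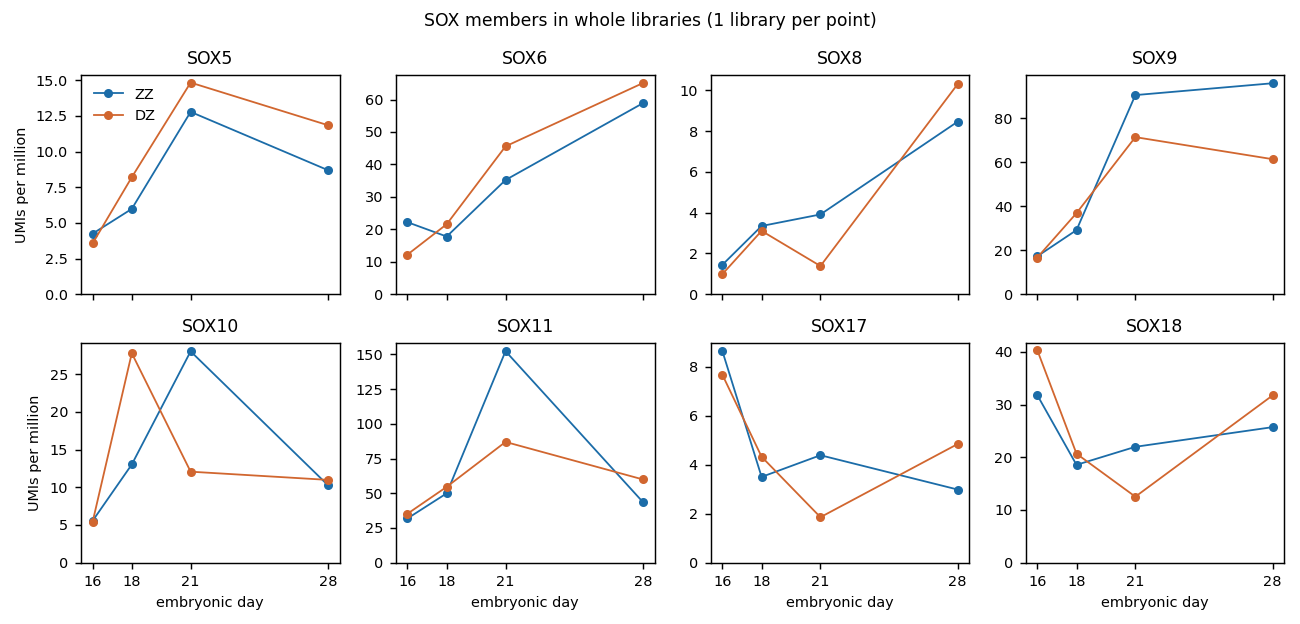
Level of each member in whole libraries, in CPM, against embryonic day, with 1 line for ZZ and 1 for DZ. SOX9, SOX6 and SOX5 are higher at E21 and E28 in both breeds, SOX11 peaks at E21 (152 and 87.0), and the lines of the breeds cross for several members.

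Between breeds, with the stage as a term, 0 of 8 members and 0 of 15143 genes passed in edgeR (0%), where 901 genes and 0 members had an unadjusted p under 0.05. DESeq2 called 59 genes and 0 members, with 937 genes and 0 members at an unadjusted p under 0.05. The differences, DZ over ZZ, ran from -0.46 for SOX8 to 0.20 for SOX5. Taken from the CPM of single stages, the sign differed between stages for every member, as for SOX10 with 1.09 at E18 and -1.22 at E21.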

How the data were processed

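The 8 libraries were made by droplet single-cell RNA sequencing of 3′ ends (10x Genomics). The authors aligned and counted the reads with Cell Ranger on Sscrofa11.1 and deposited unnormalized UMI counts per gene and cell barcode. The submitters' processing notes name Cell Ranger 3.1.0 for the 2 E16 libraries and 3.0.2 for the other 6, so version and E16 cannot be told apart, nor can myotome and E28. No column of the authors' own comparisons was used.

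From the deposited counts, barcodes with at least 200 genes, at most 30000 UMIs and at most 10% of UMIs from 13 mitochondrial genes were kept. Doublets were scored with Scrublet in scanpy 1.11.5, and the highest scores were removed at 0.8% of barcodes per 1000 barcodes, 6960 in all, since the automatic threshold marked 790. The median depth was 3405 to 6253 UMIs per cell. Gates required at least 3 markers. Of the 12 cartilage, muscle and neural progenitor markers each, 11 had a row, as had 10 of 12 neuron, 9 of 11 crest, 12 of 12 endothelial, 11 of 12 epithelial and 8 of 10 erythroid markers. Check lists were fixed for notochord, cardiac, melanocyte and macrophage cells. Counts were summed per library or per gate and library (at least 20 cells) and tested with edgeR 4.0.16 (quasi-likelihood, TMM scaling, filterByExpr, R 4.3.3), with Benjamini-Hochberg adjustment over all genes tested. Early is E16 and E18, late E21 and E28. The terms were breed and period, stage and breed, or gate and library. DESeq2 1.42.0 was an alternative. Means and shares were taken over libraries, and shares were computed after thinning to 1500 UMIs, which left out 3466 cells. The script was tested on simulated counts.

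The members, marker and target lists were chosen with earlier results of these data known. All members were described in every comparison, and of each target list at most 4 genes called in the gate of the list were named, those with the largest absolute difference; for each member the 3 genes with the most similar profile were named. The test of changes between gates, the fit without early cartilage sums and the shares of all genes whose late libraries all lay above the early ones were added after seeing the data. CCAAT was searched after the sequences were seen. Promoters were read from RefSeq's Sscrofa11.1, 250 bases before the start of each gene.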

Additional observations from a re-analysis of the deposited data

Results flagged for a closer look

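In groups of 4 libraries, 8 of 85 had a library that stood apart from the other 3 by Dixon's test, whose nominal rate is about 1 in 20. The groups mix stages and breeds, so that this rate, which is meant for replicates, is no measure for them. For SOX17 the other 3 libraries were all at 0, so that any UMI gave a flag, and the SOX8 flags are libraries at 0. In whole late libraries SOX10 was at 28.0 CPM in E21-ZZ and at 10.27 to 12.1 in the other 3. SOX10 was at 2.66 CPM in early endothelial cells of E18-DZ and at 5.68 in late neurons of E28-ZZ, the latter from 2 UMIs. SOX17 was at 0.384 CPM in late cartilage of E28-ZZ (2 UMIs), at 0.174 in late muscle of E28-DZ (2 UMIs) and at 0.613 in late neurons of E21-ZZ (5 UMIs). SOX8 was at 0 in early neural progenitors of E16-ZZ and in late neurons of E28-ZZ.

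The change from early to late differed between gates for 6 values, each the change in a gate minus the mean change of the other 3. Over all genes, 6.63% passed in cartilage, 4.97% in crest, 6.89% in endothelial cells and 15.7% in neurons, where no member passed. In cartilage the values were 1.43 for SOX6, 1.29 for SOX9 and -2.84 for SOX10. In crest they were -1.51 for SOX9 and 1.71 for SOX10, and in endothelial cells 2.26 for SOX10, which had only 44 UMIs there. For SOX10 in endothelial cells the call held in 6 of 13 alternatives and was lost without E21-ZZ (edgeR adjusted p = 0.7998), and for SOX9 in cartilage it held in 4 of 13.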

How the results depend on the processing

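Of 45 member differences past the threshold, 25 kept the call in every alternative tried, 20 lost it in at least 1 and 0 changed direction. Of 242 counts of members called, 233 stayed within 1.5 times the main count. The count was 1 in neural progenitors with gates at 4 markers, 3 in endothelial cells with a mitochondrial limit of 5%, 1 within neurons with no filter on low counts or without the E28 libraries, 1 within crest with a mitochondrial limit of 5%, gates at 4 markers or without the E16 libraries, and 1 within endothelial cells with a mitochondrial limit of 5% or without the E28 libraries; the cause was not tested. Leaving out each library in turn gave 2 to 4 members late against early, 0 to 0 for DZ against ZZ, 5 to 5 in cartilage, 5 to 6 in muscle, 2 to 3 in neural progenitors, 5 to 7 in neurons, 2 to 4 in crest, 5 to 6 in endothelial cells, 3 to 3 for myocytes, and within cartilage 3 to 5, crest 2 to 3, endothelial cells 2 to 3 and neurons 0 to 0. Thinned to 3000 UMIs, the percent of cells with a UMI was 10.1 for SOX5, 27.8 for SOX6 and 38.4 for SOX9 in cartilage, 4.96 for SOX8 in muscle, 46.9 for SOX10 in crest, 54.5 for SOX11 in neurons and 16.9 for SOX17 in endothelial cells. In the same gates it was 29.3 for SOX6, 13.8 for SOX17 and, in endothelial cells, 43.9 for SOX18 with gates at 4 markers, and 6.56 for SOX10, 4.57 for SOX17 and 16.2 for SOX18 with gates at 2 markers.

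Counts over all genes moved by over 1.5 times in 36 of 242 cases. Late against early called 5078 genes, 1311 without the E16 libraries, 2676 without the E28 libraries and 2991 without E16-DZ. Within cartilage 617 became 1405 with no filter, 2103 with gates at 2 markers and 77 to 136 without 1 early library. Within neurons 1655 became 192 with gates at 4 markers, and within endothelial cells 2595 became 483 with a mitochondrial limit of 5%. DESeq2 called 59 genes between breeds, where edgeR called 0. SOX17, late against early, passed with DESeq2 (-1.02, adjusted p = 0.0468). Breeds were matched by stage and gates by library in the fits reported. For early and late libraries no paired analysis was possible because the labels pair no library of one stage with one of another. SOX8 and SOX17 had the fewest UMIs of the members, 1526 and 1887 in all.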

Other observations

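Profiles over the 43 sums of gates and libraries were compared with those of 12084 genes by Pearson's r of log2(CPM + 1), as a description in which sums share libraries and depth. The most similar were STXBP6 (0.785), GAL3ST1 (0.782) and FSTL3 (0.744) for SOX5, FOXP2 (0.744), ABCB9 (0.742) and SNED1 (0.735) for SOX6, and MEGF10 (0.700), SMC6 (0.688) and CD82 (0.675) for SOX8. For SOX9 they were ABCB9 (0.852), GPSM2 (0.738) and SLC6A8 (0.729), for SOX10 DLX1 (0.905), SCRG1 (0.900) and PRPF6 (0.850), and for SOX11 PLPPR3 (0.923), KIF21A (0.914) and STMN3 (0.914). For SOX17 they were THSD1 (0.983), ARHGDIB (0.981) and CCL14 (0.981), and for SOX18 STARD8 (0.904), SH3TC1 (0.902) and ST6GALNAC2 (0.900).

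Of 9 other SOX genes listed, 5 had a row and only SOX13, a SOXD gene, passed the filter on low counts, with 1745 UMIs in all. It was lower in late libraries by 2.82 ± 0.42 (edgeR adjusted p = 0.00368), the opposite direction to SOX5 and SOX6 of the same group, and lower in late crest by 1.67 ± 0.53 (edgeR adjusted p = 0.0320), and it passed in none of the comparisons of a gate with the other 5. SOX3, SOX14, SOX21 and SOX30 had 37, 5, 3 and 1 UMIs.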
